A study of Mus musculus with 8 samples.

Results

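A minority of the chromatin sites recovered with the transcription factor KLF13 lay inside transcribed sequence, away from the start sites of the annotation used. The study's authors called KLF13 peaks in HT22, a mouse cell line derived from hippocampal neurons, and gave each peak an annotation class. The peaks described here are those annotated as exon, 5' UTR or 3' UTR, which numbered 444 of 9506, or 4.67% (exact 95% binomial interval 4.26 to 5.11). Exons held 258 of them, 3' UTRs 137 and 5' UTRs 49. The annotation classed peaks up to 3 kb from a transcription start (TSS, transcription start site) as promoter, so every one of the 444 lay at least 3002 bp from the TSS of its assigned gene, with a median distance of 9189 bp.

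The libraries were 4 of streptavidin-precipitated chromatin (chromatin streptavidin precipitation, ChSP) and 4 of input chromatin. All 8 came from HT22-BirA cells, which stably make the bacterial biotin ligase BirA, transfected with the pTO-Klf13Bio plasmid so that KLF13 carries biotin; the stated time from transfection to chromatin extraction is 24 h. The input cells thus carried the same ligase and plasmid, and there is no library of streptavidin-bound chromatin from cells lacking the tagged protein. The deposited list gives each peak a single fold of ChSP over input on a linear scale and a single p, both the authors' values over all libraries together, so no fold below has a replicate error and the read depth is unknown.

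KLF13 belongs to the Krüppel-like factors, zinc finger proteins that bind GC boxes and CACCC boxes, which are common in CpG-rich promoters. KLF13 is known as a repressor that recruits the SIN3A corepressor, and in hippocampal neurons it is studied with its paralogue KLF9. Exons hold coding sequence and UTRs the untranslated ends of a transcript, and an exon of one transcript can also hold the start of another.

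Of the 444 peaks, 23 overlapped a start window of the RefSeq annotation, taken as 250 bp before to 50 bp after each start on GRCm38.p6. In 6 named genes this start belonged to the gene that hosts the peak and the window held a GC box (GGGCGG or its reverse complement) inside the peak. The window in Nav1 is that of a gene model, Gm32835, and is shown because its peak had one of the smallest p of the 444. The capitals mark the first GC box inside the peak, and each stretch is read on the strand of the start it belongs to.
Gm32835 in Nav1, chr1:135687885-135687914, plus strand: ccgccgccgtgcCCGCCCcgtgcgggtcac
Sh3d19, chr3:85971010-85971039, plus strand: tgtgcggctggaGGGCGGcctcagcagccc
Begain, chr12:109053424-109053453, minus strand: cacagcgcacgcGGGCGGgtctgcgccagt
Ccdc194, chr8:71525775-71525804, minus strand: cgccgatggacgGGGCGGaaccgtgggtgt
Arhgef4, chr1:34678129-34678158, plus strand: gggcagaccatgGGGCGGggcgcggggtgg
Fam181b, chr7:93079838-93079867, plus strand: tctccgctaccgGGGCGGtcgccctgcact
Ethe1, chr7:24593829-24593858, plus strand: ttaaggcaggccCCGCCCtggcccgccctc

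The 23 peaks touched 27 windows, of which 18 (66.7%, exact 95% binomial interval 46.0 to 83.5) held GGGCGG on either strand. The share was 82.4% of the 6511 windows under any peak of the list, which lies within that interval, and 35.7% of all 32851 windows. Some of the 27 windows overlap each other, and a box was counted anywhere in its window, also outside the peak. CACCC on either strand was in 19 of the 27 (70.4%, 49.8 to 86.2), against 67.6% under any peak and 57.5% of all windows. The median GC content was 67.3% in the 27 windows, against 68.7% under any peak and 52.7% of all windows. A match is a description of letters and not a bound site, and the boxes can overlap each other.

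The share of peaks that touched a start window was 9 of 49 (18.4%, exact 95% binomial interval 8.76 to 32.0) in 5' UTRs, 10 of 258 in exons (3.88%, 1.87 to 7.01) and 4 of 137 in 3' UTRs (2.92%, 0.80 to 7.31). The intervals of the 5' UTR and exon shares do not overlap, but the difference itself was not tested. The median width was 700 bp in 5' UTRs and 500 bp in exons, and width was not taken into account in these shares. For all 444 the share was 5.18% (3.31 to 7.67), against 4.45% of the 337 intron peaks (2.51 to 7.24) and 8.74% of the 698 distal intergenic peaks (6.75 to 11.1). The median fold was 19.4 in the 23 peaks over a start window and 17.6 in the 421 that were not.

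The highest fold of any exon or UTR peak was at Ece1. Ece1, the gene of an endothelin-converting enzyme (ENSMUSG00000057530), had a fold of 52.8 in a peak 600 bp wide annotated as exon 2 of 7 and lying at -6.89 kb from the assigned TSS, where minus is upstream (the authors' p = 9.3e-16). This peak was among the 23 that overlapped a RefSeq start window, in its case one of Ece1 itself. That window held no GC box and 3 CACCC boxes, so Ece1 is not among the sequences shown above. Sh3d19, an SH3 domain adaptor gene, had a fold of 28.3 with the authors' p of 5.58e-30, the second smallest of the 444; the annotation assigned this peak to Prss48, 30.8 kb away. Begain, which encodes a postsynaptic density protein, had 26.0 in a peak 1600 bp wide that covered more than 1 of its starts. Folds were 24.5 at Ccdc194, 17.4 at Arhgef4, 14.9 at Fam181b and 11.3 at Ethe1, a mitochondrial sulfur dioxygenase gene.

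Exon and UTR peaks had a lower mean log2 fold and width than promoter peaks. Their mean log2 fold and width were higher than those of intron and intergenic peaks, but the difference in fold did not hold with width taken into account, and the share that reached a fold of 30, which was not tested, was lower. Their folds ran from 4.19 to 52.8 with a median of 17.6 (quartiles 14.0 and 22.0). Medians were 16.7 for intron peaks (quartiles 12.2 and 21.8), 17.2 for distal intergenic peaks (11.6 and 22.2) and 22.2 for promoter peaks within 1 kb of a TSS (16.5 and 30.3). The groups overlap over most of their range. The upper quartile of the 444 is close to those of intron and intergenic peaks, and the lower quartile is above theirs. A fold of 30 or more was reached by 25 of the 444 (5.63%), against 22.0% of all peaks in the list, 6.82% of intron peaks, 9.89% of distal intergenic peaks and 25.7% of promoter peaks.

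In a linear model of log2 fold over all 9506 peaks, with the class as its term and robust standard errors, exon and UTR peaks had a mean of 4.13 (n = 444). Intron peaks had 3.94 (n = 337), a difference of 0.19 (SE 0.050, 95% interval 0.10 to 0.29, adjusted p = 0.0001). Distal intergenic peaks had 3.92 (n = 698), a difference of 0.22 (SE 0.042, 0.13 to 0.30, adjusted p = 4.11e-07). Promoter peaks had 4.47 (n = 7599), a difference of -0.34 (SE 0.025, -0.39 to -0.29, adjusted p = 1.52e-40). Values were Benjamini-Hochberg adjusted over 7 contrasts, and since peaks are not replicates the p describes this list and not variation between cultures. With peak width as a covariate over the same peaks (n = 9506) the difference from intron peaks turned to -0.047 (adjusted p = 0.343) and that from intergenic peaks fell to 0.048 (adjusted p = 0.343), while the difference from promoter peaks was -0.17 (adjusted p = 1.14e-14). Without the 1 Mb bins that hold 5 or more peaks and have a median fold under 8 (n = 9398 peaks left), the differences from intron and intergenic peaks were 0.106 (adjusted p = 0.0281) and 0.073 (adjusted p = 0.073). Those bins held 108 peaks of the list and 2 of the 444.

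**Figure D1:**
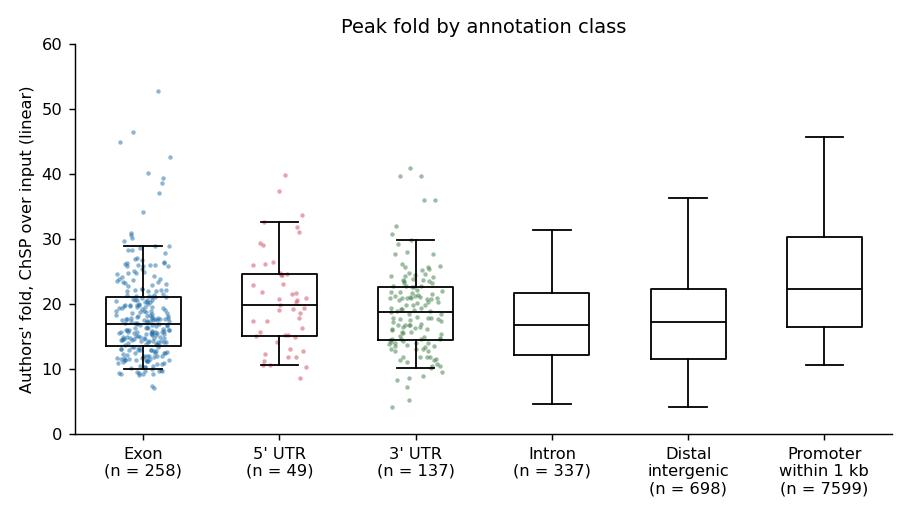
The authors' fold of ChSP over input (linear scale) for exon, 5' UTR and 3' UTR peaks beside intron, distal intergenic and promoter peaks; boxes show quartiles and median, whiskers the 5th and 95th percentiles, and dots each exon or UTR peak. The median is 16.9 in exons, 19.8 in 5' UTRs and 18.8 in 3' UTRs, against 22.2 at promoters within 1 kb.

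Width differed between the same classes. A wider peak can touch several kinds of feature, and how the annotation then chose its class was not examined. How far that choice by itself sets the width differences, here and among exons, 5' UTRs and 3' UTRs, was not tested. The median width was 550 bp for exon and UTR peaks, 400 bp for intron peaks, 500 bp for distal intergenic peaks and 700 bp for promoter peaks. On the log2 scale exon and UTR peaks (n = 444) were wider than intron peaks by 0.42 (SE 0.051, adjusted p = 3.08e-16) and than intergenic peaks by 0.29 (SE 0.043, adjusted p = 2.69e-11), and their difference from promoter peaks was -0.29 (SE 0.034, adjusted p = 1.3e-17). In the list cut to its smaller p values, with n = 4753 peaks left, the difference in width from intergenic peaks was 0.036 (adjusted p = 0.594), and the differences in fold were 0.19 from intron peaks (adjusted p = 0.2) and 0.044 from intergenic peaks (adjusted p = 0.594). Exon and UTR peaks were 109 of those 4753 peaks, or 2.29%, against 4.67% of the whole list.

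Among the classes within the 444, the median fold was 19.8 in 5' UTRs, 18.8 in 3' UTRs and 16.9 in exons, and the median widths were 700, 600 and 500 bp. The mean log2 fold was 4.16 in 3' UTRs and 4.09 in exons (n = 137 and 258), a difference of 0.06 (SE 0.055, 95% interval -0.04 to 0.17, adjusted p = 0.241). By distance from the TSS, the median fold was 17.4 in the 93 peaks at 3 to 5 kb, 17.6 in the 141 at 5 to 10 kb, 17.7 in the 115 at 10 to 25 kb, 18.0 in the 80 at 25 to 100 kb and 15.7 in the 15 beyond 100 kb.

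After Ece1, the highest fold in an exon was 46.4, in exon 1 of 2 of a transcript without a gene identifier; the peak was assigned to the zinc finger gene Zfp644, whose TSS lay 63.3 kb away. The next exon peaks by fold lay in internal and last exons. Sptbn4 encodes beta-IV spectrin, a scaffold of the axon initial segment, and had a fold of 44.9 in exon 15 of 18, at chromosome 7, 27361401 to 27362100 (the authors' p = 1.09e-24). Cacna1h, a T-type calcium channel gene, had 40.2 in exon 28 of 33. Trim14, an adaptor of antiviral signalling, had 42.6 in exon 6 of 6, and Nova2, a neuronal splicing factor gene, had 39.4 in exon 4 of 4. Smarcd3, a subunit gene of the BAF chromatin remodeller, had 38.5 in exon 2 of 13, at 3.00 kb from its TSS the closest of all 444.

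In 5' UTRs the highest folds were at Sptbn1, Myo18a and Pura. Sptbn1, which encodes the beta-II spectrin of the membrane skeleton, reached 39.9 in a peak on chromosome 11, 30267301 to 30268700 (p by the authors = 6.63e-24). Myo18a, an unconventional myosin gene, had 37.3 at chromosome 11, 77762901 to 77763800 (the authors' p = 8.01e-26). Pura, a gene of a nucleic acid binding protein of neurons, had 33.7. Nav1, a neuron navigator gene acting on microtubules, is named for its small p and had 31.1 (the authors' p = 1.68e-26). Ahnak2 and Shisa7 had higher folds than Nav1, 32.6 and 31.9, with the authors' p of 1.03e-14 and 1.32e-11. The Sptbn1 and Myo18a peaks lay at -47.5 and -13.4 kb from the assigned TSS, upstream of it. Which transcripts hold these UTRs, and where they start, was not examined.

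In 3' UTRs the highest folds were at Magi2, Celf4 and Asmt. Magi2, a synaptic scaffold gene, had 40.9 at chromosome 5, 20702001 to 20702900 (the authors' p = 1.71e-19). Celf4, a neuronal RNA-binding protein gene, had 39.7, in a peak whose assigned TSS, that of AW554918, lay 253 kb away. Asmt, the gene of the last enzyme of melatonin synthesis, had 39.7 in a peak 2100 bp wide.

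The lowest folds were also in named genes. Klf13 itself had the lowest of the 444, a fold of 4.19 at its 3' UTR (chromosome 7, 63891201 to 63892100, the authors' p = 1e-11). The plasmid carries Klf13 sequence, and whether plasmid reads contribute there cannot be told apart in this list. Slc30a4, a zinc transporter gene, had 5.23 in a 3' UTR peak 200 bp wide, and Sobp 7.09 in an exon peak of the same width.

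Zrsr2 had the smallest p of the 444 with a modest fold. Zrsr2 encodes a component of the minor spliceosome, and its 3' UTR peak at chromosome X, 163935901 to 163936900, had a fold of 11.8 with the authors' p of 1.58e-58, rank 3 of the whole list. It lies in a stretch of chromosome X from 162 to 165 Mb that held 66 peaks with a median fold of 4.65, against 21.1 for the 177 peaks elsewhere on X. The only other of the 444 in that stretch was a 5' UTR peak of Siah1b, a ubiquitin ligase gene, with a fold of 8.62. The part of that stretch in the p of Zrsr2 was not tested.

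**Figure D2:**
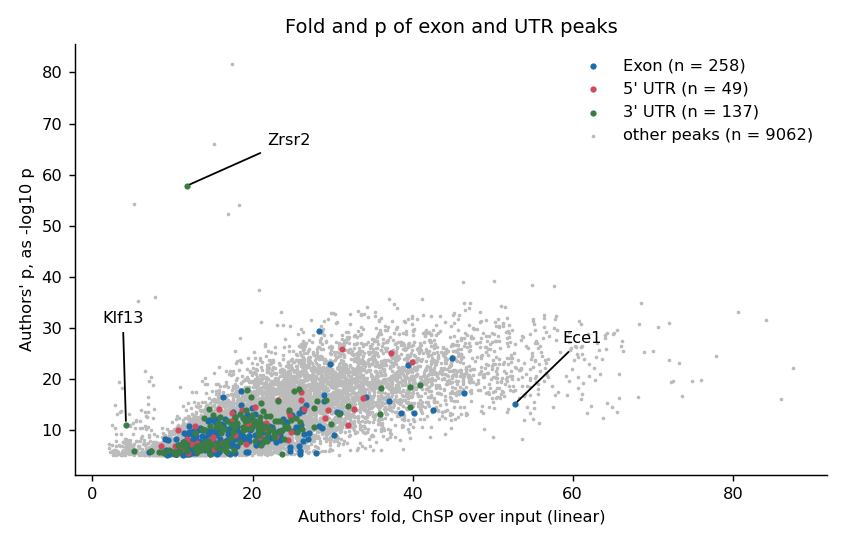
The authors' fold of ChSP over input (linear, horizontal) against the authors' p as -log10 p (vertical) for exon, 5' UTR and 3' UTR peaks in colour and for the 9062 other peaks in grey. Zrsr2 combines a fold of 11.8 with the smallest p of the 444, Ece1 has the highest fold, 52.8, and Klf13 the lowest, 4.19.

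Exon peaks were mostly in internal exons, but no share of internal exons over all genes was taken to set beside this. The median exon count of the transcripts was 7, and most exons of such a transcript are internal. Of the 258, 146 (56.6%, exact 95% binomial interval 50.3 to 62.7) lay in an internal exon, 84 (32.6%, 26.9 to 38.6) in the last exon, 18 (6.98%, 4.19 to 10.8) in the first and 10 in transcripts of a single exon. Median folds were 17.1 in internal exons, 16.0 in last exons, 20.8 in first exons and 16.7 in single exons. The highest exon number was 91 of 106, in Ryr1, a ryanodine receptor gene, with a fold of 17.9. Where the host and the assigned gene agreed and the peak lay inside the assigned transcript, 129 exon peaks had a median position of 68.1% of the transcript's length from its TSS, and 20 lay in the final 10%. Leaving out the 3 kb next to a TSS by itself moves positions downstream and lowers the count in first exons, and for UTR peaks the class fixes much of the position. The medians there were 45.8% for 30 peaks in 5' UTRs and 87.7% for 77 in 3' UTRs.

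**Figure D3:**
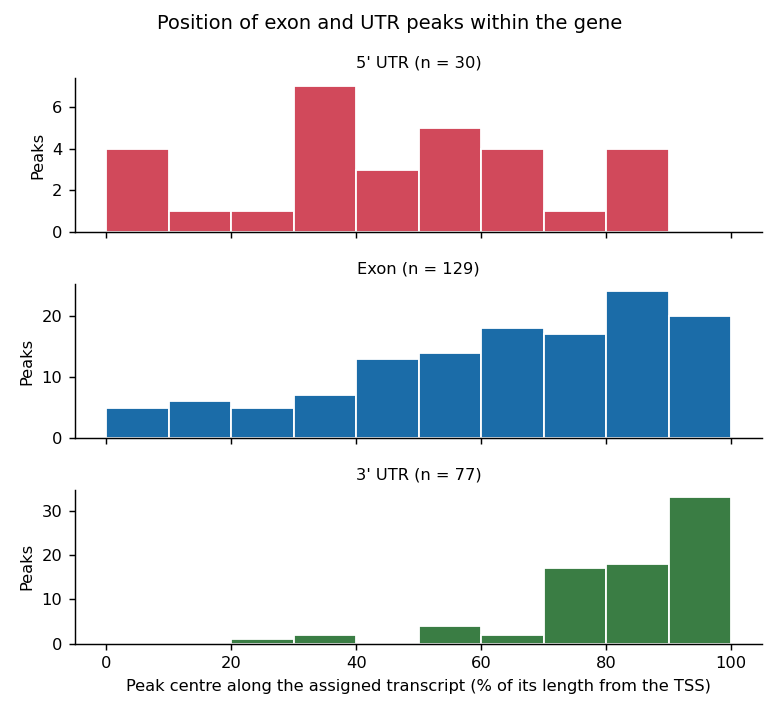
Number of peaks (vertical) by position of the peak centre along the assigned transcript, in percent of its length from the TSS (horizontal), for 30 peaks in 5' UTRs, 129 in exons and 77 in 3' UTRs. Exon peaks are spread over the whole transcript with a median of 68.1%.

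The gene that a peak is assigned to was often not the gene it lies in. The assigned gene is the one with the nearest TSS, while the exon annotation names the transcript that holds the exon. Of 225 exon peaks whose annotation gives a gene identifier, 80 (35.6%, exact 95% binomial interval 29.3 to 42.2) lay in another gene than the assigned one, against 69 of 314 intron peaks (22.0%, 17.5 to 27.0). Among the exon peaks within the 4753 peaks of smallest p the share was 20.0%. For UTR peaks the host was taken as the RefSeq protein-coding gene over the peak where there was 1, and it differed in 15 of 49 peaks in 5' UTRs (30.6%) and 49 of 133 in 3' UTRs (36.8%). The strongest peak in Sptbn4 was assigned to Shkbp1, that in Cacna1h to Tpsg1, that in Nova2 to Nanos2, that in Magi2 to Phtf2, that in Trim14 to Nans, that in Nav1 to Csrp1, that in Ryr1 to Map4k1 and that in Klf13 to E030018B13Rik. A microRNA was the assigned gene of 15 peaks, with a median fold of 18.6. None of the 444 overlapped a microRNA hairpin. Peaks up to 3 kb from an annotated TSS, those of microRNA genes included, were classed as promoter. The lack of overlap thus follows largely from the class.

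A host was found for 417 of the 444 peaks, in 364 genes. Of these genes 320 held 1 such peak, 37 held 2, 5 held 3 and 2 held 4. Sptbn4 had 4 exon peaks with folds of 44.9, 16.1, 26.4 and 17.8 in genomic order. Srrm3, a splicing factor gene of neurons, had 4 as well, with 26.5 in a 5' UTR and 10.8, 17.4 and 17.4 in exons. Cacna1a, the gene of the P/Q-type calcium channel, had 14.3 and 15.6 in exons and 36.0 in a 3' UTR. Dact3, a Wnt pathway antagonist gene, had 24.6 and 14.7 in exons and 27.6 in a 3' UTR. Ptprs, a receptor phosphatase gene that acts in axon growth, had 26.7, 20.3 and 13.4 in exons. Lmtk3, a kinase gene, had 19.1 in a 5' UTR and 17.1 and 25.8 in exons. Foxo6, a forkhead factor gene, had 16.7 and 16.5 in a 3' UTR and 12.4 in an exon. Peaks of 1 gene lie on the same chromatin and are not independent.

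Many host genes also had a peak at their promoter. A promoter peak within 1 kb of a TSS was assigned to 216 of the 364 host genes (59.3%, exact 95% binomial interval 54.1 to 64.4) and to 182 of 284 host genes of intron peaks (64.1%, 58.2 to 69.7), against 30.9% of 21900 protein-coding genes. The length of the genes was not taken into account in these shares. Of 255 exon and UTR peaks in genes with a promoter peak, 176 (69.0%) had a lower fold than the highest promoter fold of the same gene. The median fold was 17.7 at these exons and UTRs. The median of the highest promoter folds was 23.2, with each gene counted once per exon or UTR peak. Peak width was not taken into account in this comparison. The 162 peaks in genes without a promoter peak had a median fold of 17.3.

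The other 79 peaks had a higher fold inside the gene than at its promoter. Acvrl1, a receptor gene of TGF-beta family ligands, had a fold of 29.0 in exon 10 of 11 and 8.10 at its promoter. Nova2 had 39.4 in its last exon and 16.5 at its promoter, Magi2 had 40.9 in its 3' UTR and 17.4 at its promoter, and the semaphorin gene Sema6c had 25.7 in its 3' UTR and 11.0 at its promoter. At the other end, Slc30a4 had 5.23 in its 3' UTR and 66.1 at its promoter. For Ece1, Sptbn1 and Myo18a no promoter peak was assigned, but the Ece1 peak itself overlapped a RefSeq start window of Ece1, and the Sptbn1 peak that of the gene model Gm8098. Acvrl1 and Sema6c were chosen here after their values were seen.

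**Figure D4:**
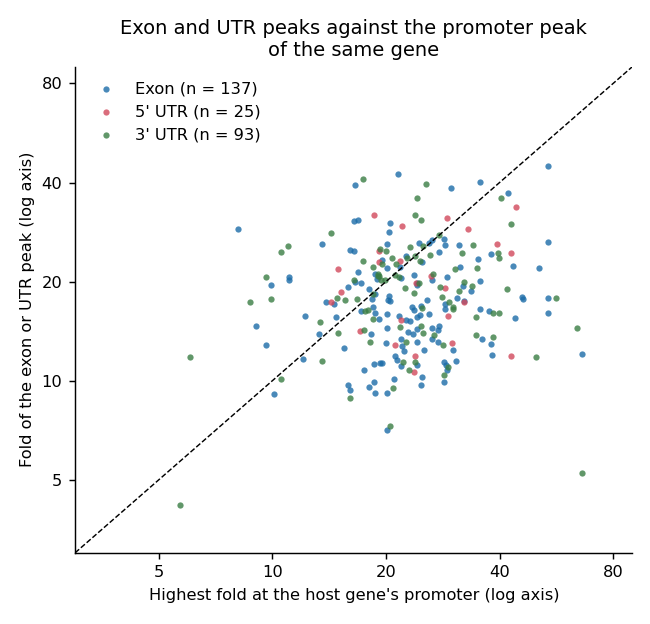
Fold of each exon or UTR peak (vertical) against the highest promoter fold of its host gene (horizontal), both on log axes, for 255 peaks coloured by class; the dashed line marks equal folds. Of the 255 peaks, 176 lie below the line, and the points show wide scatter.

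Gene families were counted by the symbol prefix of the host gene, or of the assigned gene where no host was found, so genes of the same family under other symbols were not counted. Homeobox and developmental factor genes held 17 of the 444 peaks (3.83%), against 2.56% of all peaks, with a median fold of 15.1 against 18.8 over all peaks of the family. Hoxc9, a Hox factor gene, had 23.9 in an exon and Tbx1, a T-box factor gene, had 22.6 in a 3' UTR. C2H2 zinc finger genes under Zfp, Zbtb, Klf and the like, a list without Prdm, Scrt, Zfhx3 or Casz1, held 15 (3.38%), against 2.68% of all peaks, with a median fold of 18.0 against 22.2, and Zfp362 had 26.1. Potassium, sodium and voltage-gated calcium channel genes, a list without ryanodine and glutamate receptors, held 11 (2.48%), against 1.27% of all peaks, with a median of 16.4 against 19.3; the highest were Cacna1h and Cacna1a. Protocadherin and cadherin genes held 5 (1.13%), against 0.337% of all peaks, with a median of 16.7 against 20.0, and the classical cadherin genes Cdh24 and Cdh22 had 23.5 and 22.2 in 3' UTRs. The shares were not tested, and some peaks of a list lie in the same gene.

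Other families held few of the exon and UTR peaks. Solute carrier genes held 2 of the 444 (0.450%), against 1.73% of all peaks. Chromatin regulator genes held 4 (0.901%, against 1.31% of all peaks) and axon guidance genes 2 (0.450%, against 0.726%). MAP kinase and Ras regulator genes held 4 (0.901%, against 0.736%) and adhesion and orphan GPCR genes 3 (0.676%, against 0.558%), both near their share of the list. The symbol prefixes listed for the cAMP pathway took in 2 peaks (0.450%, against 0.537% of all peaks). Rapgef2, an exchange factor for Rap GTPases, had an exon peak with a fold of 15.6. A 3' UTR peak with 14.7, for which no host was found, was assigned to Creb3l1, at -35.2 kb from its TSS. Creb3l1 was counted through its prefix alone, and whether it acts in the cAMP pathway was not examined. Clock transcription factor genes with the Per and Cry genes, a list without clock kinases such as Csnk1d, ribosomal protein genes, and collagen and laminin genes held none of the 444, out of 20, 18 and 26 peaks of those families in the whole list. These are 0.210%, 0.189% and 0.274% of all peaks, so holding none of the 444 says little about them. Klf13 was the only KLF or Sp gene with such a peak, and the peaks of KLF and Sp genes in the whole list were not counted apart.

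By chromosome, exon and UTR peaks took a varying share of the list. On chromosome 7 they were 57 of 632 peaks (9.02%, exact 95% binomial interval 6.90 to 11.5), the highest share, and on chromosome 16 they were 5 of 279 (1.79%, 0.584 to 4.13), the lowest among chromosomes with such peaks. Chromosomes 3 and 9 had 1.97% and 2.14%. The peaks of chromosome 7 numbered 28.1 per 1000 protein-coding genes, against 7.36 on chromosome 16, 9.16 on chromosome 3 and 33.3 on chromosome 18. The order per gene thus differs from the order per peak. The median gap from an exon or UTR peak to the nearest other peak was 14050 bp, against 27000 bp for intron peaks and 25500 bp for distal intergenic peaks. Another peak lay within 1 kb of 63 of the 444 (14.2%, exact 95% binomial interval 11.1 to 17.8). That share was close to the 15.0% of distal intergenic peaks (12.5 to 17.9). It was 11.3% for promoter peaks within 1 kb of a TSS and 9.79% for intron peaks.

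**Figure D5:**
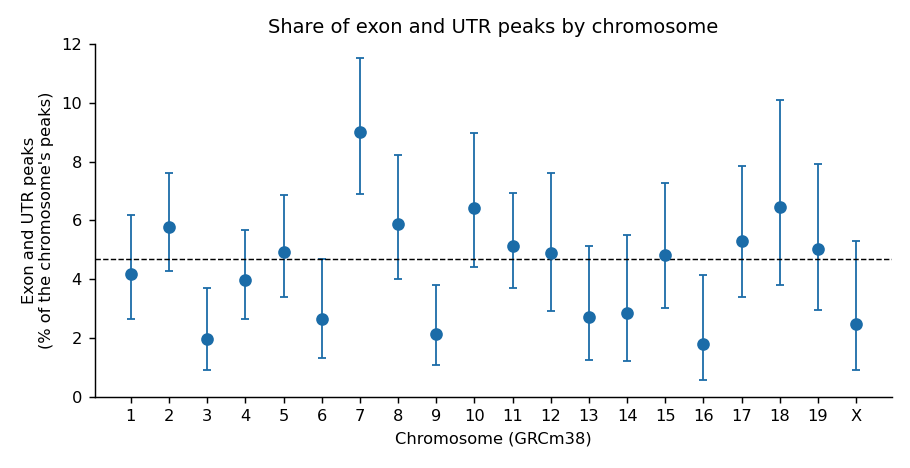
Exon and UTR peaks as a percentage of all peaks on each chromosome (vertical), by chromosome (horizontal), with exact 95% binomial intervals that cover counting error only; the dashed line is the 4.67% of the whole list. The whole interval of chromosome 7, with 9.02%, lies above the line, and those of chromosomes 3, 9 and 16 lie below it. Other chromosomes also have shares above or below the line, with intervals that reach it.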

How the data were processed

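The data are one deposited peak list over 4 ChSP and 4 input libraries, with no value per library. Per the submitters' processing notes the build was GRCm38 and the tools, whose roles are not stated, were BWA 0.7.17-r1188, HOMER 4.9.1, ChIPseeker 1.16.1 and FastQC 0.11.3; the list's name gives PePr as peak caller. The deposited fold is a linear ratio of ChSP over input by the authors (scaling and caller settings: not given in the sources used here). Each peak's p-value, raw and adjusted, is as deposited. The deposited score only rescales the fold by a constant and was left out. Peak width, in steps of 100 bp, and TSS distance are the annotation's own, per the file headers.

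Members and gene lists were chosen with earlier results of these data known. Named genes are the 12 of highest fold, the 6 of smallest p, the 3 of lowest fold, the 3 of highest fold per UTR class, hosts of 3 or more peaks, the 2 of highest fold per family of 5 or more, and all clock, KLF, Sp and cAMP genes; the highest exon number, pairs of peak and promoter and start-window genes were chosen after seeing values. Hosts came from the gene identifier in the annotation or from RefSeq gene bounds on GRCm38.p6, and promoter sequences from RefSeq on that build. Classes were compared by ordinary least squares with HC3 errors (statsmodels 0.14.6, Python 3.11.15), two-sided, Benjamini-Hochberg adjusted over 7 contrasts with a threshold of 0.05, and tested on simulated data. Alternatives are given in the closing section. The labels do not say that libraries came from separate cultures. The sequences of the other start windows are not reported here.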

Additional observations from a re-analysis of the deposited data

How the results depend on the processing

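No paired analysis was possible because each peak has a single fold over all 8 libraries; for the same reason no library could be left out in turn. With n = 4753 peaks of smallest p, exon and UTR peaks were 2.29% of the list, log2 fold differed by 0.19 from intron peaks (adjusted p = 0.2, and adjusted p in parentheses from here on) and by 0.044 from intergenic peaks (0.594), log2 width by 0.036 from intergenic peaks (0.594), and the 3' UTR minus exon difference turned to -0.098 (0.457); 20.0% of exon peaks there lay outside their assigned gene. With width as a covariate, log2 fold differed by -0.047 from intron peaks, 0.048 from intergenic peaks, and 3' UTR minus exon was -0.044 (0.343 each). Without the low-fold 1 Mb bins the difference from intergenic peaks was 0.073 (0.073). For each of these, the cause was not tested. The other 62 values kept their direction and side of the threshold, or stayed within the interval of a share. The low-fold bins, the start-window exclusion and the hosts of UTR peaks were chosen after seeing the data. Over all settings, the adjusted p of the difference in fold from promoter peaks ran from 1.17e-41 to 5.62e-09. Read depth is unknown, so intervals of shares cover counting error only.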
